A study of Mus musculus with 27 samples.

Results

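The comparison described here is that of mouse bone marrow cultures kept for 48 h with Flt3 ligand (Flt3-L) and cyclosporin A (CsA), 3 arrays, with cultures kept for 48 h with Flt3-L alone, 3 arrays. These 6 arrays were chosen by their sample titles from the 27 arrays of the series. The cells of both groups were flushed from the femurs and tibias of C57BL/6 mice aged 8 to 12 weeks and grown in Iscove's medium. Both groups received Flt3-L at about 200 ng/ml, made by transfected B16 cells, and the CsA group also received CsA at 2 µg/ml, from 30 min before the ligand until harvest. The other 21 arrays held unstimulated marrow and the same pair of cultures at 12 h, 24 h and 11 days, with 3 biological replicates in each of the 9 groups. They entered here through the shared estimate of the spread and through the comparison between times. The cultures were unsorted marrow, so each array read a mixture of cell types.

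Flt3-L is a cytokine that makes marrow progenitors proliferate and differentiate, mainly into dendritic cells. CsA binds cyclophilin inside the cell, and the complex blocks calcineurin, a phosphatase that is switched on by calcium. Active calcineurin strips phosphates from NFAT transcription factors, which then enter the nucleus and switch on cytokine, receptor and activation genes. Cyclophilins also help proteins fold in the cytosol and the endoplasmic reticulum, so CsA can act on cells by routes other than NFAT.

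Expression is given as the deposited RMA intensity of each gene's probe set on a linear scale, and differences as log2 of CsA with Flt3-L minus Flt3-L alone, with the standard error of a limma model over all 27 arrays. A gene was called at a Benjamini-Hochberg adjusted p below 0.05 over 19935 genes. Arrays of the same group correlated at 0.997 to 0.9984 across genes, and a CsA array with an array of Flt3-L alone at 0.9956 to 0.9971. In a principal component analysis of the 6 arrays, the first component (38.2% of the variance) separated CsA from Flt3-L alone. The second (31.4%) set the arrays numbered 1 of both groups apart from the other 4. The gene Naaa, an acid amidase, followed the replicate number in all 9 groups: it measured 212.4 to 614.9 on the 9 arrays numbered 1, 719.0 to 1491.5 on those numbered 2 and 1422.4 to 2691.2 on those numbered 3. The arrays numbered 1 at 48 h also had more Vsig4 and Cd5l, both macrophage genes. Counts of called list members are therefore also given without these 2 arrays where lists are described. A call that ended when 1 array was left out, or with the replicate number as a block, is given with that adjusted p. The block was fitted to the arrays of the compared groups alone, so its adjusted p also reflects a spread estimated from fewer arrays.

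Markers of blood cells were present on all 6 arrays. Ptprc, which encodes the leukocyte antigen CD45, measured 2839.4, 3038.1 and 2888.9 on the CsA arrays, against 3093.5, 3239.3 and 3190.7 with Flt3-L alone, and the 10 pan-leukocyte genes summed to 37064 to 38763 on the CsA arrays and 38943 to 40877 with Flt3-L alone. Of these 10 genes, 1 was called, the integrin gene Itgb2 (-0.14 ± 0.04, adjusted p = 0.0482), which was not called with the block (0.227) or without the third CsA array (0.194). RNA quality was not given for these samples, so its part in any result was not tested.

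CsA changed 900 of 19935 genes at 48 h, 432 higher and 468 lower, which is 4.51% of the genes tested, 2.17% higher and 2.35% lower. The falls were deeper than the rises. At least 2-fold, 23 genes fell (0.115%) and 1 rose (0.00502%), and at least 1.5-fold, 102 fell (0.512%) and 25 rose (0.125%). The largest fall was a log2 difference of -2.0 and the largest rise 1.37, while the median over all genes was 0.02. In 894 of the 900 called genes the 2 groups did not overlap, against 19.1% of all genes (11.7% with every CsA array higher and 7.45% with every CsA array lower). The 15 largest falls and 15 largest rises were picked among called genes without overlap, so their separation was set by that rule. Without the arrays numbered 1, 387 genes were called, 173 higher and 214 lower, and 379 of them were among the 900. These 173 and 214 of 19935 genes are the base for list counts without those arrays. The shares of 2.17% higher and 2.35% lower are the base for list counts of the fit over all arrays.

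**Figure D1:**
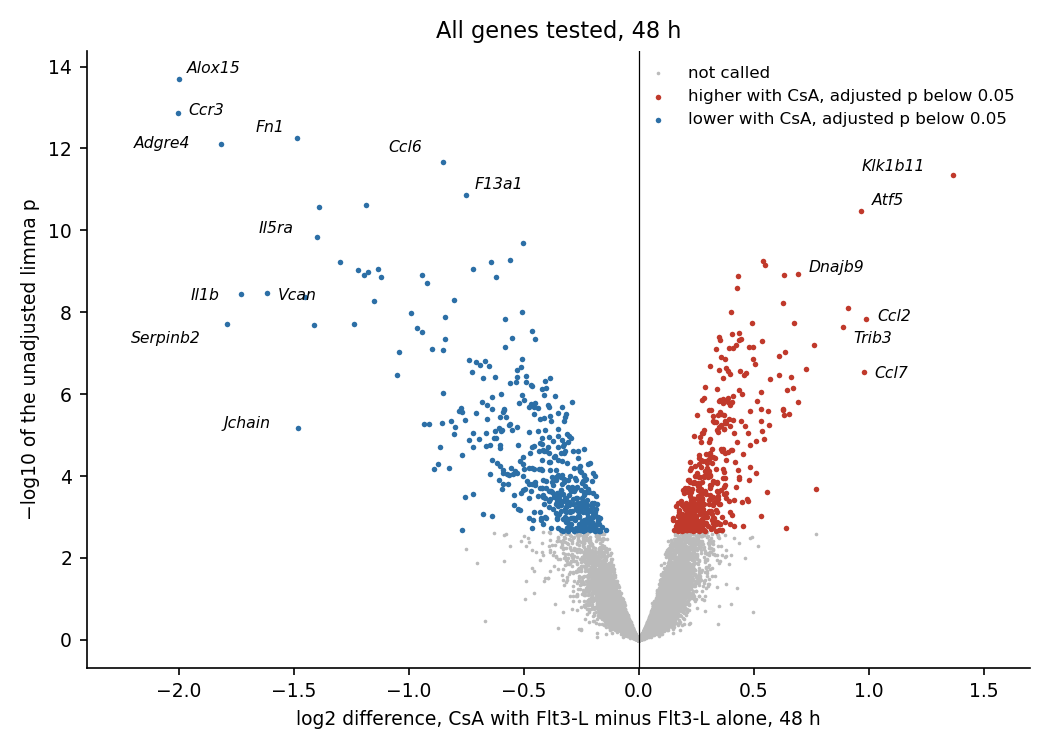
Each point is 1 of the 19935 genes tested at 48 h, with the log2 difference of CsA with Flt3-L minus Flt3-L alone on the horizontal axis and −log10 of the unadjusted limma p on the vertical axis. The 468 called genes that fell (left) reach -2.0, further from 0 than the 432 that rose (right), which reach 1.37.

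**Figure D2:**
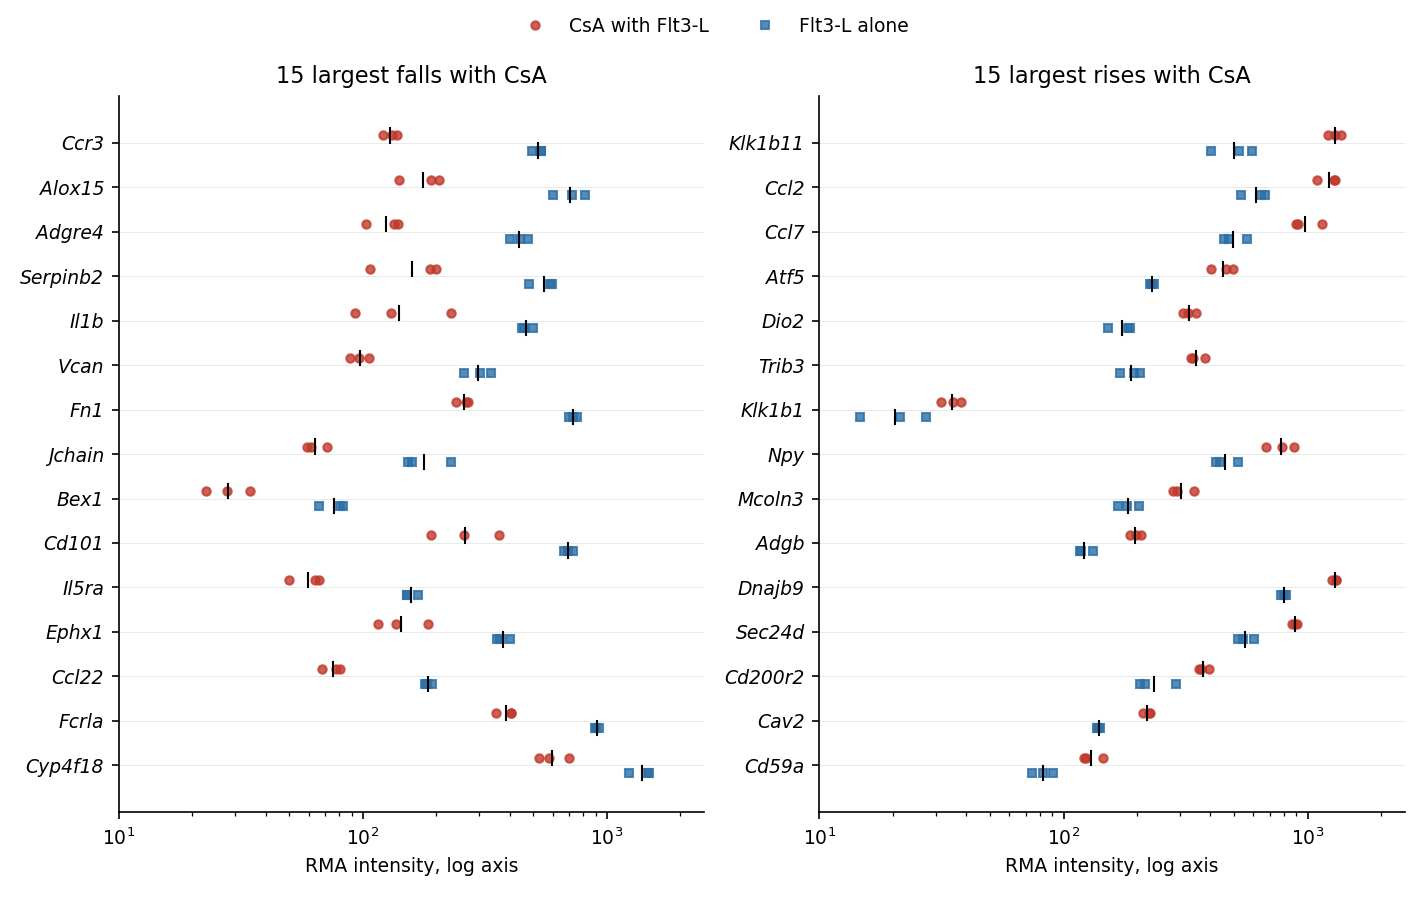
RMA intensity (log axis) on every 48 h array for the 15 largest falls and the 15 largest rises, with circles for CsA with Flt3-L above squares for Flt3-L alone and a vertical bar at each group's geometric mean. The genes were taken from those whose groups do not overlap. Ccr3, the largest fall, lies at 120.6 to 137.6 with CsA and 491.4 to 536.8 without, and Klk1b11, the largest rise, at 1214.2 to 1370.4 with CsA and 400.3 to 594.5 without.

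Most transcripts of the pathway that CsA blocks were not called, and those that were called were all lower. Over all genes, 2.35% were called lower. Of 5 calcineurin subunit genes, none was called, with differences between -0.16 and 0.07. The catalytic subunit gene Ppp3ca measured 1840.5, 2015.4 and 1883.8 on the CsA arrays, against 2041.2, 2018.3 and 2043.6 with Flt3-L alone (-0.09 ± 0.05, adjusted p = 0.413). Its groups did not overlap, and 7.45% of all genes had every CsA array below every array without it. Ppp3cb, another catalytic subunit, and Ppp3r1, the regulatory subunit, differed by -0.02 and 0.07, with overlapping groups. Of the 5 NFAT genes, 2 were called lower, 1 with the block and none without the arrays numbered 1. Nfatc1 measured 634.3, 711.6 and 694.5 on the CsA arrays, against 852.9, 845.2 and 821.1 with Flt3-L alone (-0.31 ± 0.06, adjusted p = 0.00113). Every CsA array lay below every array without it, a 1.24-fold difference, which did not pass without both arrays numbered 1 (0.0611). Nfat5, the family member that responds to osmotic stress and does not need calcineurin, was called at -0.26 ± 0.07, adjusted p = 0.0285, but not with the block (0.0911) or without the first Flt3-L array (0.185). Nfatc2 (-0.07) and Nfatc3 (-0.03) were not called. Rcan1, a feedback inhibitor of calcineurin that NFAT induces in many cells, measured 337.8, 294.5 and 300.2 on the CsA arrays, against 349.4, 345.0 and 309.3 with Flt3-L alone (-0.11 ± 0.09, adjusted p = 0.705), with overlapping groups. None of 13 calcineurin-binding, kinase and cyclophilin genes of the pathway was called. Of 14 genes of calcium entry and release, 2 were called lower, and none without the arrays numbered 1. These were the channel genes Orai1 (-0.19) and Orai3 (-0.18), and neither passed with the block (0.0981 and 0.192) or without the first CsA array (0.25 and 0.23).

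Of 24 genes commonly induced through NFAT, 5 fell, against 2.35% of all genes, and none rose. The list median was -0.10, against 0.02 over all genes. Il2ra, the high-affinity interleukin 2 receptor chain, fell most. It measured 155.4, 166.8 and 168.5 on the CsA arrays, against 350.5, 365.8 and 360.3 with Flt3-L alone (-1.13 ± 0.12, adjusted p = 9.19e-07). The arrays of each group lay close together and the groups far apart. Ptgs2, the inducible prostaglandin synthase COX-2, measured 94.5, 143.0 and 113.7 on the CsA arrays, against 220.3, 257.0 and 240.8 with Flt3-L alone, a 2.07-fold fall (-1.05 ± 0.15, adjusted p = 6.79e-05). Egr2 fell 1.51-fold (-0.59 ± 0.10, adjusted p = 0.000662) and the orphan nuclear receptor Nr4a1 1.40-fold (-0.49 ± 0.07, adjusted p = 9.16e-05). Tnf was lower too (-0.35 ± 0.09, adjusted p = 0.0253), a call lost without the first CsA array (0.123). Nr4a3, a relative of Nr4a1, and Il4 were at -0.32 and -0.29 without passing the test, although Nr4a3 passed it with the block (0.0246). Without the arrays numbered 1, 4 of the 5 falls were called. In the wider list of 25 immediate early genes, 7 fell and 1 rose, and without those arrays 2 fell and 1 rose. Zfp36, which encodes an RNA-binding protein that shortens the life of cytokine mRNAs, fell to 1140.5, 1292.8 and 1184.8 with CsA, against 1518.4, 1528.1 and 1464.7 with Flt3-L alone (-0.32 ± 0.06, adjusted p = 0.00168). Dusp4, a phosphatase of MAP kinases, was the exception. It measured 138.6, 144.3 and 136.0 on the CsA arrays, against 118.0, 94.3 and 95.2 with Flt3-L alone (0.45 ± 0.09, adjusted p = 0.00194).

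The eosinophil genes included the 3 largest falls of the comparison. Eosinophils are granulocytes that depend on interleukin 5, carry the eotaxin receptor CCR3 and store basic proteins, peroxidase and ribonucleases in their granules. Of 10 tested eosinophil genes, 9 fell, against 2.35% of all genes, and none rose. Their median difference was -1.17 against 0.02 over all genes, and 7 fell without the arrays numbered 1. Ccr3 measured 120.6, 131.9 and 137.6 on the CsA arrays, against 491.4, 536.8 and 536.5 with Flt3-L alone, which is a 4.01-fold fall (-2.0 ± 0.13, adjusted p = 1.39e-09). Il5ra, the specific chain of the interleukin 5 receptor, measured 49.9, 66.1 and 63.9 on the CsA arrays, against 151.5, 152.2 and 168.0 with Flt3-L alone (-1.40 ± 0.13, adjusted p = 2.59e-07). The rule that picked both receptors set the absence of overlap between their groups. Alox15, a lipoxygenase that makes anti-inflammatory lipid mediators, measured 141.0, 191.2 and 206.1 on the CsA arrays, against 604.1, 721.1 and 816.1 with Flt3-L alone, a fall of 4.0-fold (-2.0 ± 0.12, adjusted p = 3.98e-10). Adgre4, an adhesion receptor of myeloid cells, fell to 103.4, 134.2 and 139.0 with CsA, against 402.0, 475.3 and 440.5 with Flt3-L alone (-1.82 ± 0.13, adjusted p = 3.88e-09).

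The granule genes fell as well, by less for some. Epx, eosinophil peroxidase, measured 132.3, 148.0 and 150.1 on the CsA arrays, against 299.1, 309.2 and 368.7 with Flt3-L alone (-1.18 ± 0.12, adjusted p = 9.66e-07). Ear6, an eosinophil-associated ribonuclease with near-identical relatives whose signal its probes may share, measured 539.7, 605.7 and 746.0 on the CsA arrays, against 1424.3, 1443.1 and 1303.9 with Flt3-L alone (-1.15 ± 0.13, adjusted p = 3.04e-06). The major basic protein genes Prg2 and Prg3 and the sialic acid receptor gene Siglecf made up the 9, with differences of -0.46 ± 0.10, -0.50 ± 0.11 and -0.46 ± 0.07. Cebpe, a transcription factor that eosinophils share with neutrophils, did not pass the test (-0.05 ± 0.09, adjusted p = 0.899). The 10 genes summed to 4002, 4495 and 4755 on the CsA arrays, against 7199, 7824 and 7462 with Flt3-L alone. In bulk cultures such as these, fewer cells of a type and less RNA per cell cannot be told apart.

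The promoters of Ccr3 and Il5ra are printed because these 2 receptors are defining genes of the lineage and were among its largest falls. The sequences run from 250 bases before to 50 after the start of the RefSeq transcript (GRCm38.p6), 5′ to 3′ on the strand of the gene. Capitals mark the NFAT core GGAAA and the GATA site GATAA, each on either strand. Ccr3 lies at chr9:124021721-124022020, plus strand, and Il5ra, chosen after its values were seen, at chr6:106748988-106749287, minus strand.
Ccr3: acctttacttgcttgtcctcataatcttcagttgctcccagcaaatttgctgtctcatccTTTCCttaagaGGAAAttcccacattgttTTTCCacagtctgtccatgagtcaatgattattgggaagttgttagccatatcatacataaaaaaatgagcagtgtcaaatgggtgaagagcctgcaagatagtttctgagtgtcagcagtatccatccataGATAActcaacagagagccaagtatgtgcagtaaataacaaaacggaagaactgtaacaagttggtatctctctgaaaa
Il5ra: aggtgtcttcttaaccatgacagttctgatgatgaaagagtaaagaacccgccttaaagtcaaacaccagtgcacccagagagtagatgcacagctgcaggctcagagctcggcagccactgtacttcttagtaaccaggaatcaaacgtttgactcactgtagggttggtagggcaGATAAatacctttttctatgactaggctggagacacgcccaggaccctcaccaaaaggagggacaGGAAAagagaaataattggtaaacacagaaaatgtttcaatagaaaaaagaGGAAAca
The Ccr3 window holds 3 NFAT cores, at 190, 179 and 161 bases before the start, and 1 GATA site at 29 bases before it. The Il5ra window holds 1 GATA site, 73 bases before the start, and 2 NFAT cores, 8 bases before the start and 43 after it. The window of Adgre4, which fell more than Il5ra and is not printed, holds 1 GATA site and no NFAT core. Of the 9 eosinophil genes that fell, 7 had a promoter in the table, and 6 of these genes had a GATA site in a promoter. Of all 32851 promoters, 25.4% held that site. The NFAT core is short and common. It stood in a promoter of 10 of the 13 genes found from the 15 largest falls, and of 6 of 13 from the 15 largest rises. It stood in 61.3% of all promoters. Gene counts and promoter shares are unlike units, since a gene can have several promoters. A match of letters describes the window and does not show that a factor binds there.

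Genes of mast cells and basophils, which arise from progenitors close to those of eosinophils, fell in 7 of 15 cases with none higher. Their median was -0.41, and 2.35% of all genes were called lower. Without the arrays numbered 1, 4 were called. The 15 genes summed to 3825 to 4254 on the CsA arrays and 5262 to 5613 with Flt3-L alone. Mcpt8, a protease of basophils, measured 198.3, 210.6 and 199.2 on the CsA arrays, against 354.3, 393.5 and 415.0 with Flt3-L alone (-0.93 ± 0.16, adjusted p = 0.000514). The groups were far apart. Prss34, another basophil protease, fell 1.79-fold (-0.84 ± 0.10, adjusted p = 6.28e-06). Gata2, a transcription factor of mast cells, basophils and stem cells, measured 227.3, 261.9 and 269.1 on the CsA arrays, against 330.2, 342.1 and 330.4 with Flt3-L alone (-0.41 ± 0.07, adjusted p = 0.00067). Ms4a2 and Cpa3 were called at -0.48 ± 0.11 and -0.46 ± 0.12, calls lost without the first CsA array (0.095) and the second Flt3-L array (0.127). Hdc, the enzyme that makes histamine, was called at -0.57 ± 0.13 and lost the call without the first CsA array (0.0675). Fcer1a, the IgE-binding chain of the high-affinity IgE receptor, was at -0.59 (adjusted p = 0.147) and was called with the block (0.000987).

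A few late neutrophil genes fell. Of 18 genes of secondary granules and late neutrophils, 4 fell, against 2.35% of all genes, and 1, Ly6g, was called without the arrays numbered 1. The 4 include Hdc, already counted with the mast cell and basophil genes above. The other 14 were not called, among them S100a8, S100a9, Ltf and Camp. Ly6g, whose product marks mature mouse neutrophils and belongs to a family of close paralogs, measured 1501.2, 1687.8 and 1635.8 on the CsA arrays, against 2663.3, 2822.7 and 3225.8 with Flt3-L alone (-0.85 ± 0.13, adjusted p = 0.000154). Csf3r, the receptor of granulocyte colony-stimulating factor, and Cxcr2 were called at -0.37 ± 0.08 and -0.48 ± 0.11, and neither without the first CsA array (0.0856 and 0.0754). Ngp, a granule protein gene, differed by 0.03 (adjusted p = 0.962). Among 12 primary granule genes 1 rose, and none without the arrays numbered 1. It was Serpinb1a (0.31 ± 0.07, adjusted p = 0.0138, and 0.116 without the first Flt3-L array), and Mpo, the myeloperoxidase of neutrophil granules, was not called (-0.22 ± 0.08, adjusted p = 0.107).

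Monocyte genes fell in 7 of 13 cases, against 2.35% of all genes, and none rose (median -0.33). Without the arrays numbered 1, 5 fell. The 13 genes summed to 13691 to 14356 on the CsA arrays and 16045 to 16455 with Flt3-L alone. Vcan, the matrix proteoglycan versican that classical monocytes make, measured 89.0, 106.4 and 96.6 on the CsA arrays, against 336.4, 260.1 and 300.9 with Flt3-L alone (-1.62 ± 0.18, adjusted p = 2.23e-06). This was a 3.06-fold fall, and the absence of overlap between groups was set by the rule that picked the gene. F13a1, the monocyte form of coagulation factor XIII, measured 979.9, 1072.4 and 1048.2 on the CsA arrays, against 1748.9, 1793.9 and 1670.7 with Flt3-L alone (-0.75 ± 0.06, adjusted p = 3.93e-08). Cd14, the co-receptor for bacterial lipopolysaccharide, fell 1.81-fold (-0.85 ± 0.11, adjusted p = 2.35e-05) and the fractalkine receptor Cx3cr1 1.5-fold (-0.58 ± 0.08, adjusted p = 2.14e-05). Treml4 was called at -0.42 ± 0.10, a call lost without the first Flt3-L array (0.0633), and Csf1r, the receptor that monocytes and macrophages share, was not called (-0.16 ± 0.06, adjusted p = 0.159). Few macrophage genes were called. Of 25 macrophage surface and identity genes, 1 was called, against 4.51% of all genes, and none without the arrays numbered 1. It was called higher, the scavenger receptor Msr1 (0.31 ± 0.08, adjusted p = 0.0227, and 0.171 without the first CsA array). The list median was 0.01, and Mertk, a receptor for apoptotic cells, differed by -0.23 ± 0.15, adjusted p = 0.561.

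Several secreted and inducible inflammatory genes fell with CsA, while most of the NF-kappaB list was not called. Il1b, the gene for interleukin 1 beta, measured 92.8, 230.5 and 130.6 on the CsA arrays, against 500.6, 455.8 and 448.1 with Flt3-L alone. The CsA arrays were more spread than the others, and the absence of overlap was set by the rule that picked the gene. The fall was 3.32-fold (-1.73 ± 0.19, adjusted p = 2.24e-06). Il1rn, the natural antagonist of interleukin 1, fell with it to 536.5, 570.4 and 538.5 with CsA, against 763.8, 811.5 and 773.0 with Flt3-L alone (-0.51 ± 0.07, adjusted p = 4.91e-05). Il1f9, another ligand of the family, was called at -0.42 ± 0.12 but not without the first CsA array (0.241), and the receptor chain Il1rl2 was called higher with the block alone (0.48 ± 0.15, adjusted p = 0.0645 and 0.0032 with the block). Of 15 genes of the interleukin 1 family, 3 fell, and 2 without the arrays numbered 1. Of 23 NF-kappaB pathway and inflammatory genes, 7 fell, against 2.35% of all genes, and none rose, with a median of -0.15. Without the arrays numbered 1, 3 fell. Nfkbie, an inhibitor of NF-kappaB that NF-kappaB itself induces, measured 272.6, 283.2 and 300.4 on the CsA arrays, against 411.6, 392.4 and 412.9 with Flt3-L alone (-0.51 ± 0.06, adjusted p = 5.16e-06). Icam1, an adhesion molecule, fell 1.31-fold (-0.39 ± 0.06, adjusted p = 7.58e-05), and Birc3, an inhibitor of cell death, was called at -0.27 ± 0.06 but not with the block (0.0509) or without the first CsA array (0.0651). Cd83, an activation marker of dendritic cells, was called at -0.34 ± 0.08 but not without the second Flt3-L array (0.0543). Of 23 interferon-stimulated genes 1 was called, which is near the share of 4.51% over all genes. It was Cxcl10 (-0.89 ± 0.19, adjusted p = 0.00393). With the block 5 were called lower and 1 higher. Without the arrays numbered 1, Cxcl10 did not pass (0.0969).

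Chemokine genes moved in both directions. Ccl2 and Ccl7, neighbouring genes whose products attract monocytes through CCR2, were among the largest rises. Ccl2 measured 1292.2, 1280.8 and 1096.8 on the CsA arrays, against 671.8, 533.7 and 646.1 with Flt3-L alone (0.99 ± 0.12, adjusted p = 6.69e-06). Ccl7 measured 1142.0, 897.5 and 915.9 on the CsA arrays, against 563.5, 478.0 and 455.2 with Flt3-L alone (0.98 ± 0.14, adjusted p = 6.2e-05). Both were picked among genes whose CsA arrays all lay above the arrays without it. Ccl22, a product of dendritic cells that attracts T cells through CCR4, fell 2.46-fold, to 77.5, 80.7 and 68.4 with CsA, against 180.0, 193.0 and 184.0 with Flt3-L alone (-1.30 ± 0.13, adjusted p = 7.43e-07). Ccl6, a chemokine of rodent myeloid cells, measured 1818.9, 1991.6 and 1839.5 on the CsA arrays, against 3187.2, 3567.5 and 3454.2 with Flt3-L alone (-0.85 ± 0.06, adjusted p = 8.62e-09). Ccl24, an eotaxin, and Ccl17, another ligand of CCR4, were called lower at -0.53 ± 0.11 and -0.34 ± 0.08, and lost the call without the third CsA array (0.052 and 0.0892). Ccl17 also lost it with the block (adjusted p = 0.059). Of 16 CC chemokine ligands, 2 rose and 4 fell, against 2.17% and 2.35% of all genes, with the same counts without the arrays numbered 1. Of 13 CXC ligands 3 fell, and 1 without those arrays. The 3 were Cxcl10 and the neutrophil attractant Cxcl2 (-0.77 ± 0.22, lost without the first CsA array at 0.21) besides Cxcl16. Cxcl16, which is held at the cell surface and binds CXCR6, measured 236.3, 299.1 and 256.7 on the CsA arrays, against 406.8, 410.9 and 359.2 with Flt3-L alone (-0.58 ± 0.10, adjusted p = 0.000389).

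The chemokine receptor genes that passed the test all fell. Of 19 chemokine receptor genes, 7 fell, against 2.35% of all genes, and none rose (median -0.24). Without the arrays numbered 1, 4 fell. Besides Ccr3, Cx3cr1 and Cxcr2, Cxcr5, which guides B cells into follicles, measured 70.5, 62.3 and 72.7 on the CsA arrays, against 109.7, 135.9 and 144.7 with Flt3-L alone (-0.92 ± 0.10, adjusted p = 1.32e-06). Ccr6, the receptor of CCL20, measured 69.3, 69.4 and 67.3 on the CsA arrays, against 97.1, 86.9 and 101.7 with Flt3-L alone (-0.47 ± 0.07, adjusted p = 0.000234). Both had non-overlapping groups, as did 894 of the 900 called genes. Ccr2, which binds CCL2 and CCL7, was called at -0.33 ± 0.09, a call lost without the third CsA array (0.11). Ccr1 and Ccr7 were at -0.37 and -0.31 and passed the test with the block alone (0.00866 and 0.0176).

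B lineage genes fell at the early and at the mature stage. B cells are built in marrow: EBF1 and PAX5 set their identity, RAG1 and RAG2 cut the antibody genes, and the surrogate light chain marks the precursor stage. Of 18 early B cell and recombination genes, 9 fell and 1 rose (median -0.24), against 2.35% and 2.17% of all genes. Without the arrays numbered 1, 6 fell and 1 rose. Rag1 measured 184.7, 159.8 and 226.1 on the CsA arrays, against 334.3, 311.8 and 350.7 with Flt3-L alone (-0.82 ± 0.14, adjusted p = 0.000455). Ebf1 measured 648.5, 534.2 and 631.0 on the CsA arrays, against 1137.5, 941.0 and 1078.2 with Flt3-L alone (-0.80 ± 0.14, adjusted p = 0.000594). Both had separate groups, as did 894 of the 900 called genes. Igll1, part of the surrogate light chain, fell 1.58-fold (-0.66 ± 0.11, adjusted p = 0.000418) and the related Vpreb3 1.53-fold (-0.62 ± 0.12, adjusted p = 0.00299). Rag2 and Bach2, a repressor of the plasma cell fate, were called at -0.42 ± 0.11 and -0.46 ± 0.12, and lost the call without the third CsA array (0.117) and the second CsA array (0.176). Il7r, the receptor for the cytokine on which early B cells grow, was the gene that rose. It measured 3606.2, 3636.1 and 3522.9 on the CsA arrays, against 3132.0, 2821.9 and 2819.6 with Flt3-L alone (0.30 ± 0.06, adjusted p = 0.00367). Dntt, the polymerase that adds bases at antibody gene joints, was not called (-0.22 ± 0.15, adjusted p = 0.562).

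Of 17 genes of the B cell receptor complex and of mature B cells, 9 fell, against 2.35% of all genes. All 17 differences were below 0 (median -0.35). With the block 12 fell, and without the arrays numbered 1, 6 did. Fcmr, an Fc receptor for IgM, measured 675.5, 594.9 and 701.9 on the CsA arrays, against 1311.5, 1208.2 and 1388.6 with Flt3-L alone (-0.99 ± 0.12, adjusted p = 5.33e-06). This was close to a 2-fold difference. Cd72, an inhibitory co-receptor, fell to 1417.9, 1214.5 and 1470.4 with CsA, against 2271.8, 1978.3 and 2062.5 with Flt3-L alone (-0.62 ± 0.09, adjusted p = 7.46e-05). Fcer2a (CD23), Pou2af1, a B cell transcriptional coactivator, and Blk, a B cell kinase, fell, at -0.68 ± 0.11, -0.64 ± 0.13 and -0.61 ± 0.11. Ikzf3, the lymphoid factor Aiolos, measured 752.0, 663.6 and 797.3 on the CsA arrays, against 1297.2, 1044.8 and 1109.3 with Flt3-L alone (-0.64 ± 0.10, adjusted p = 0.00029). Spib and Cd22 were at -0.35 and -0.29 and were called with the block (0.016 and 0.0255) but not without it. Fcrla, an intracellular Fc receptor-like protein of B cells, was among the 15 largest falls of all genes. It measured 406.6, 351.9 and 404.3 on the CsA arrays, against 898.5, 904.8 and 930.8 with Flt3-L alone (-1.24 ± 0.15, adjusted p = 8.44e-06).

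Plasma cell genes, which belong to antibody secretion, were divided, with 4 of 11 lower and 1 higher, against 2.35% and 2.17% of all genes. Without the arrays numbered 1, 2 were lower and none higher. Jchain, which joins IgM and IgA units, measured 58.9, 71.3 and 61.6 on the CsA arrays, against 159.9, 229.9 and 152.7 with Flt3-L alone (-1.48 ± 0.26, adjusted p = 0.000627), a 2.79-fold fall. The second array without CsA was the highest, and all 3 lay above the CsA arrays, as the rule that picked the gene required. Irf4, a factor of plasma cells and of activated dendritic cells, measured 390.9, 400.7 and 417.6 on the CsA arrays, against 600.9, 579.7 and 601.4 with Flt3-L alone (-0.56 ± 0.10, adjusted p = 0.000519). Prdm1 and Tnfrsf13b were called lower at -0.37 ± 0.09 and -0.20 ± 0.05 and lost the call without the first CsA array (0.0858) and the third Flt3-L array (0.107), and Tnfrsf13b also with the block (0.107). Creld2, an endoplasmic reticulum protein, was called higher (0.34 ± 0.08, adjusted p = 0.0155), and not without the first Flt3-L array (0.112).

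Among dendritic cell genes, falls were called in the type 2 and activation list and in the plasmacytoid list, and most genes of the type 1 list were not called. Of 22 type 2 conventional dendritic cell and activation genes, 9 fell, against 2.35% of all genes, and none rose (median -0.24). Without the arrays numbered 1, 4 fell. Besides Ccl22 and Irf4, Kmo, an enzyme of tryptophan breakdown, measured 794.9, 828.9 and 797.2 on the CsA arrays, against 1100.7, 1095.9 and 1198.2 with Flt3-L alone (-0.49 ± 0.11, adjusted p = 0.0065). Ltb, lymphotoxin beta, fell 1.35-fold (-0.43 ± 0.08, adjusted p = 0.00173). Mgl2, a C-type lectin, was called at -0.54 ± 0.13 and not without the first CsA array (0.117). Of 16 type 1 conventional dendritic cell genes, 2 were called higher, against 2.17% of all genes, and none without the arrays numbered 1. These were Cadm1 (0.35 ± 0.10, adjusted p = 0.0481), lost without the first CsA array (0.231), and the transcriptional regulator Id2 (0.19 ± 0.05, adjusted p = 0.0339), lost with the block (0.114) and without the third Flt3-L array (0.185). Of 17 plasmacytoid dendritic cell genes, 5 were called lower, 3 with the block and 2 without the arrays numbered 1, with differences from -0.34 to -0.17. Pacsin1 fell, at -0.23 ± 0.05 (adjusted p = 0.0061, and 0.0515 with the block). Ptprcap was called at -0.34 ± 0.10 but not without the third Flt3-L array (0.21). Tcf4, the factor that defines plasmacytoid dendritic cells, was called at -0.17 ± 0.05 but not with the block (0.16) or without the first Flt3-L array (0.235).

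In the lists of antigen presentation and of myeloid lectins, the called genes were all lower. Of 14 genes in the MHC class II presentation list, 3 fell, against 2.35% of all genes, and 2 without the arrays numbered 1. The 3 were the class II chaperone subunits H2-Ob (-0.42 ± 0.10) and H2-Oa (-0.33 ± 0.07), and Cd72. Cd72 is the inhibitory co-receptor already counted with the B cell genes above. H2-Ob lost its call without the second CsA array (0.055) and H2-Oa without the third Flt3-L array (0.0661). H2-Ab1, the beta chain of the presenting molecule I-A, measured 4041.2, 4266.5 and 4218.9 on the CsA arrays, against 4635.2, 4769.8 and 5228.3 with Flt3-L alone (-0.22 ± 0.07, adjusted p = 0.0942), which did not pass the test. Of 19 myeloid C-type lectin receptors 5 fell, and 2 without the arrays numbered 1. Clec4a1 measured 1007.6, 1120.7 and 1122.1 on the CsA arrays, against 1436.6, 1551.8 and 1418.8 with Flt3-L alone (-0.44 ± 0.08, adjusted p = 0.000711), and Cd209a, a relative of human DC-SIGN, 1608.0, 1639.3 and 1678.9 on the CsA arrays, against 2159.4, 2188.7 and 2088.9 with Flt3-L alone (-0.39 ± 0.08, adjusted p = 0.00288). Cd209d fell, at -0.59 ± 0.12 (0.00407 as adjusted p). Clec7a, the beta-glucan receptor Dectin-1, and Clec4n, Dectin-2, were called at -0.31 ± 0.09 and -0.52 ± 0.13, and lost the call without the second Flt3-L array (0.189) and the first CsA array (0.142). Lectins of these clusters have close paralogs, so their probe sets may share signal.

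Genes of amino acid supply rose in part. ATF4 is a transcription factor that is made when amino acids run short or unfolded proteins build up, and it switches on genes for amino acid synthesis, transport and tRNA charging. Of 27 ATF4 regulators and direct targets, 8 rose and 1 fell (median 0.15), against 2.17% and 2.35% of all genes. Without the arrays numbered 1, 7 rose and none fell. Atf4 itself measured 609.9, 664.2 and 617.1 on the CsA arrays, against 477.8, 478.1 and 497.2 with Flt3-L alone (0.38 ± 0.05, adjusted p = 5.29e-05). Atf5, a related factor, measured 400.5, 493.2 and 464.0 on the CsA arrays, against 226.7, 230.7 and 234.9 with Flt3-L alone (0.97 ± 0.08, adjusted p = 6.7e-08), a 1.95-fold rise. For Atf5, the absence of overlap between the groups was set by the rule that picked it. Trib3, a pseudokinase that restrains ATF4 signalling, measured 339.7, 379.0 and 331.4 on the CsA arrays, against 205.2, 170.0 and 193.7 with Flt3-L alone (0.89 ± 0.11, adjusted p = 9.21e-06). Asns, asparagine synthetase, measured 2552.2, 2676.8 and 2537.8 on the CsA arrays, against 1641.0, 1671.7 and 1698.2 with Flt3-L alone (0.63 ± 0.07, adjusted p = 9.72e-07), a 1.55-fold rise. Nupr1, Mthfd2 and Aldh18a1, which encode a stress-induced nuclear protein, a mitochondrial folate enzyme and an enzyme of proline synthesis, rose by 0.61 ± 0.08, 0.55 ± 0.10 and 0.48 ± 0.06. Ddit3, the factor CHOP, was higher by 0.35 ± 0.11 (adjusted p = 0.0644, and 0.0104 with the block). The gene that fell was Eif2ak3, the kinase PERK (-0.22 ± 0.06, adjusted p = 0.0285), and its call was lost with the block (0.0721) and without the first CsA array (0.196).

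Of 23 tRNA synthetase and amino acid transport genes, 12 rose, against 2.17% of all genes, and none fell (median 0.24). Without the arrays numbered 1, 9 rose, and 9 did with the block. Sars, the serine tRNA synthetase, measured 1580.6, 1609.1 and 1591.5 on the CsA arrays, against 1139.5, 1123.2 and 1259.5 with Flt3-L alone (0.44 ± 0.06, adjusted p = 1.53e-05). Cars and Eprs, which charge tRNAs for cysteine and for glutamate and proline, rose 1.37-fold (0.46 ± 0.07, adjusted p = 6.79e-05) and 1.31-fold (0.39 ± 0.07, adjusted p = 0.000418). Among transporters, Slc7a1, which carries arginine and lysine, measured 736.6, 700.4 and 681.1 on the CsA arrays, against 548.1, 521.4 and 521.8 with Flt3-L alone (0.41 ± 0.06, adjusted p = 0.00017). Slc6a9, a glycine transporter, and Slc1a4, a neutral amino acid transporter, rose by 0.44 ± 0.07 and 0.43 ± 0.07. Tars and Iars, for threonine and isoleucine, were higher by 0.26 and 0.26 without passing the test (0.141 and 0.0529 as adjusted p).

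The promoters of Trib3 and Asns show the ATF4 composite element TGATGNAA, which is why they are printed, both chosen after the values were seen. They cover the same window of the RefSeq table (GRCm38.p6), with the element in capitals. Trib3 lies at chr2:152344011-152344310, minus strand, and the element there reads TTACATCA on the strand printed, 14 bases after the start. Asns lies at chr6:7693160-7693459, minus strand, with TGATGAAA 23 bases before the start.
Trib3: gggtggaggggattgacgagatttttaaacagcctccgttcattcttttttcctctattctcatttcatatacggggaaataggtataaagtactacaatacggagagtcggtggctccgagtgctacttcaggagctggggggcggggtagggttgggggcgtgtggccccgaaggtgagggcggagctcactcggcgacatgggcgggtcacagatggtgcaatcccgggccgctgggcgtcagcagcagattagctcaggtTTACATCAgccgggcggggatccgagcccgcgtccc
Asns: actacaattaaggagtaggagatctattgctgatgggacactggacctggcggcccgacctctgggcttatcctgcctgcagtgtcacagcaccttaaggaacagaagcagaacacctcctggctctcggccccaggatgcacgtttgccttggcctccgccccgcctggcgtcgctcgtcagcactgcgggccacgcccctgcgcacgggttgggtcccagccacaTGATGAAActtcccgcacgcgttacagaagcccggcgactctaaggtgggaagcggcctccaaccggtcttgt
The element stood in 3.97% of all 32851 promoters. Counted by gene, with any promoter of a gene allowed to match, it was found for 3 of the 8 ATF4 genes that rose. Of the 12 tRNA and transport genes that rose, 8 had a promoter in the table, and it was found for 3 of them. The share of all promoters counts each promoter, which is an unlike unit. The windows of Atf5, the largest rise of the ATF4 list, hold no such element and are not printed. The Il5ra promoter printed above also holds 1 such element, and that gene fell.

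In the list of protein folding and export genes of the endoplasmic reticulum, the genes that passed the test all rose. Proteins bound for the surface or for secretion fold in this compartment with the help of chaperones and disulfide isomerases, and leave it in COPII vesicles. Of 24 folding and export genes, 12 rose, against 2.17% of all genes, and none fell. All 24 differences were above 0 (median 0.24). With the block 10 rose, and without the arrays numbered 1, 9 did. Dnajb9, a co-chaperone, measured 1260.1, 1301.8 and 1312.5 on the CsA arrays, against 781.1, 817.2 and 798.0 with Flt3-L alone (0.69 ± 0.07, adjusted p = 9.72e-07). Sec24d, a cargo adaptor of COPII vesicles, measured 863.2, 907.7 and 887.3 on the CsA arrays, against 517.3, 545.8 and 604.1 with Flt3-L alone (0.68 ± 0.08, adjusted p = 8.09e-06). In both genes the CsA arrays lay close together, and the absence of overlap was set by the rule that picked them. Pdia6, a disulfide isomerase, rose 1.33-fold (0.41 ± 0.07, adjusted p = 0.000749), Dnajc3, a co-chaperone that inhibits PERK, 1.31-fold (0.39 ± 0.05, adjusted p = 5.73e-05) and the chaperone Hyou1 1.29-fold (0.37 ± 0.06, adjusted p = 0.000462). Manf, a secreted stress protein, was called at 0.44 ± 0.09 but not without the third Flt3-L array (0.0534). Hspa5, the main chaperone BiP, measured 4637.1, 4577.8 and 4514.1 on the CsA arrays, against 3887.9, 3806.5 and 4172.5 with Flt3-L alone and was not called (0.21 ± 0.06, adjusted p = 0.0519). Xbp1, a central factor of the unfolded protein response, was not called either (0.09 ± 0.05, adjusted p = 0.391). Of 9 heat shock genes 1 rose, the co-chaperone Bag3 (0.38 ± 0.08, adjusted p = 0.00575), and none without the arrays numbered 1.

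The Sec24d promoter is printed for the unfolded protein response element TGACGTGG, in capitals, and was chosen after its values were seen. It lies at chr3:123267246-123267545, plus strand (GRCm38.p6), with the element 26 bases before the start.
Sec24d: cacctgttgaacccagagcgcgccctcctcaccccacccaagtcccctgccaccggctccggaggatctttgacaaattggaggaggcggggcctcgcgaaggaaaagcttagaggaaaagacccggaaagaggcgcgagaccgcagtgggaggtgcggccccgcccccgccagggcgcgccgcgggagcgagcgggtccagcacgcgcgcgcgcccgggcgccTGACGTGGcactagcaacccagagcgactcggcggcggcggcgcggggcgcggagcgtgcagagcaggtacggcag
Counted by gene, this element was found for 1 of the 9 endoplasmic reticulum genes that rose and had a promoter in the table. It was found in 0.676% of all promoters, each counted singly. The ER stress element, CCAAT and CCACG with 9 bases of any kind between them, was found for 3 of the 9 genes and in 0.119% of all promoters. The window of Dnajb9, the largest rise of the list, holds neither element and is not printed.

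Klk1b11 was the largest rise of the comparison and the only called rise above 2-fold. It encodes a glandular kallikrein, a serine protease of a mouse gene cluster with near-identical members. It measured 1214.2, 1292.0 and 1370.4 on the CsA arrays, against 400.3, 525.6 and 594.5 with Flt3-L alone (1.37 ± 0.11, adjusted p = 1.47e-08), a 2.58-fold rise. Klk1b1 of the same cluster, dim on every array, measured 31.6, 38.0 and 35.3 on the CsA arrays, against 14.6, 27.4 and 21.3 with Flt3-L alone (0.77 ± 0.18, adjusted p = 0.00889). Its call was lost without the first Flt3-L array (0.0874), and signal shared between these genes was not separated here. Dio2, the deiodinase that activates thyroid hormone, measured 308.1, 347.8 and 322.3 on the CsA arrays, against 151.7, 187.8 and 183.4 with Flt3-L alone (0.91 ± 0.10, adjusted p = 4.18e-06). Npy, the precursor of neuropeptide Y, measured 880.4, 782.7 and 675.6 on the CsA arrays, against 516.5, 421.8 and 438.1 with Flt3-L alone (0.76 ± 0.10, adjusted p = 1.96e-05). By the rule that picked them, all their CsA arrays stood above the others. Mcoln3, an endolysosomal cation channel, rose 1.66-fold (0.73 ± 0.10, adjusted p = 5.57e-05), and Adgb, androglobin, 1.62-fold (0.69 ± 0.11, adjusted p = 0.000218). Cav2, a caveolin of membrane pits, measured 226.0, 223.7 and 210.7 on the CsA arrays, against 141.3, 138.8 and 137.6 with Flt3-L alone (0.66 ± 0.10, adjusted p = 7.46e-05), and Cd59a, an inhibitor of complement, 144.6, 123.9 and 120.8 on the CsA arrays, against 74.1, 90.9 and 82.5 with Flt3-L alone (0.65 ± 0.11, adjusted p = 0.000346).

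The CD200 receptors, which restrain or activate myeloid cells, and their ligand divided within the family. Of 5 tested genes 3 rose and 1 fell, against 2.17% and 2.35% of all genes. The same numbers were called without the arrays numbered 1. Cd200r2 measured 358.1, 365.6 and 395.7 on the CsA arrays, against 205.4, 290.1 and 216.1 with Flt3-L alone (0.67 ± 0.10, adjusted p = 0.000122), and Cd200r4 484.6, 515.8 and 537.8 on the CsA arrays, against 290.6, 362.5 and 334.0 with Flt3-L alone (0.64 ± 0.10, adjusted p = 0.000133). Cd200, the ligand, rose 1.35-fold (0.43 ± 0.08, adjusted p = 0.00114). Cd200r3, a member found on mast cells and basophils, fell to 32.3, 31.9 and 32.5 with CsA, against 43.3, 58.0 and 50.1 with Flt3-L alone (-0.64 ± 0.10, adjusted p = 0.000183). Cd200r1, the inhibitory receptor, was higher by 0.30 and was called with the block (0.0193, against 0.058 without it). The receptors are close paralogs, so their signals may be shared.

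The remaining large falls were of varied function. Serpinb2, the plasminogen activator inhibitor PAI-2, measured 107.0, 188.9 and 198.8 on the CsA arrays, against 478.3, 585.1 and 595.3 with Flt3-L alone (-1.79 ± 0.22, adjusted p = 8.44e-06), a 3.46-fold fall. Fn1, fibronectin, measured 270.6, 241.4 and 265.4 on the CsA arrays, against 751.8, 724.2 and 696.9 with Flt3-L alone (-1.48 ± 0.11, adjusted p = 3.73e-09). In both, the groups were far apart. Cd101, an immunoglobulin-like surface protein, measured 189.7, 362.8 and 259.2 on the CsA arrays, against 668.6, 723.5 and 692.4 with Flt3-L alone (-1.41 ± 0.17, adjusted p = 8.63e-06), with a wide spread among the CsA arrays. Ephx1, an epoxide hydrolase of the endoplasmic reticulum, measured 185.2, 115.4 and 136.9 on the CsA arrays, against 401.6, 366.6 and 356.2 with Flt3-L alone (-1.39 ± 0.12, adjusted p = 5.97e-08). Bex1, dim on all arrays, measured 27.8, 34.5 and 22.7 on the CsA arrays, against 66.4, 82.9 and 80.5 with Flt3-L alone (-1.45 ± 0.16, adjusted p = 2.62e-06). For these genes, the absence of overlap between the groups was set by the rule that picked them.

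Lipid mediator genes that passed the test were mostly lower. Of 21 genes of leukotriene and prostaglandin metabolism, 6 fell and 1 rose (median -0.08), against 2.35% and 2.17% of all genes. Without the arrays numbered 1, 4 fell and 1 rose. Besides Alox15 and Ptgs2, Hpgd, which breaks down prostaglandins, measured 347.8, 304.1 and 308.2 on the CsA arrays, against 444.2, 456.1 and 456.2 with Flt3-L alone (-0.50 ± 0.10, adjusted p = 0.00224), and Pla2g7, which inactivates platelet-activating factor, 2859.0, 3010.0 and 2803.4 on the CsA arrays, against 3698.6, 3687.7 and 3684.2 with Flt3-L alone (-0.35 ± 0.07, adjusted p = 0.00145). Ptges, the inducible prostaglandin E synthase, was the rise: it measured 264.4, 298.1 and 299.9 on the CsA arrays, against 232.1, 215.5 and 220.9 with Flt3-L alone (0.37 ± 0.07, adjusted p = 0.00154). Cyp4f18, which hydroxylates leukotriene B4 and is outside that list, measured 528.2, 702.5 and 578.5 on the CsA arrays, against 1232.4, 1478.6 and 1487.1 with Flt3-L alone (-1.22 ± 0.12, adjusted p = 9.19e-07). Of 21 cholesterol efflux and fatty acid genes, 2 fell and 1, Fasn, rose, with a median of 0.09 and 16 differences above 0. With the block, and without the arrays numbered 1, 2 fell and none rose. Scd1, a fatty acid desaturase, fell 1.79-fold (-0.84 ± 0.11, adjusted p = 1.52e-05), and the cholesterol exporter Abca1 1.29-fold (-0.37 ± 0.07, adjusted p = 0.00225). Of 19 sterol synthesis genes 3 were called higher, and 1 without the arrays numbered 1. The 3 were Lss (0.27 ± 0.07), Insig1 (0.26 ± 0.06) and Cyp51 (0.25 ± 0.07). With the block 1 was called, since Insig1 and Cyp51 were then both at 0.0581. Each call was lost without 1 array, at adjusted p of 0.0891 (first CsA array), 0.0587 (second Flt3-L array) and 0.158 (first CsA array).

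Chondroitin sulfate synthesis genes fell in 5 of 18 cases, against 2.35% of all genes, with none higher, although the list median was -0.02. With the block 3 fell, and 3 did without the arrays numbered 1. The list includes Vcan, the proteoglycan core described with the monocyte genes. Chst3 and Chst15, sulfotransferases of the chain, fell 1.47-fold (-0.55 ± 0.11, adjusted p = 0.00367) and 1.29-fold (-0.36 ± 0.07, adjusted p = 0.00209). Xylt1 and Chsy1, which start and extend the chain, were called at -0.24 ± 0.05 and -0.25 ± 0.06, and neither with the block (0.052 and 0.0529). They also lost the call without the third (0.056) and the first CsA array (0.0559). Of 23 genes of matrix and pericellular proteolysis 3 fell, and 2 without the arrays numbered 1. Adam19, a membrane metalloprotease, measured 696.9, 764.2 and 769.1 on the CsA arrays, against 932.1, 1043.3 and 1006.1 with Flt3-L alone (-0.42 ± 0.06, adjusted p = 0.000129), Timp2 was at -0.31 ± 0.06, and Mmp14 was called at -0.54 ± 0.14 but not without the first CsA array (0.129).

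Few cell cycle genes passed the test at 48 h, where 4.51% of all genes did. None of 29 DNA replication genes, 24 genes of the G2 and M phases and 8 cyclin D genes, kinases and partners was called, at list medians of 0.02, -0.01 and 0.06. Of 9 CDK inhibitors and pocket proteins, 1 was called higher and 1 lower, and none without the arrays numbered 1. Cdkn1c, the inhibitor p57, was called at 0.24 ± 0.07 (adjusted p = 0.0447) but not without the first CsA array (0.213). Rbl2, the pocket protein p130, was called at -0.20 ± 0.06 (adjusted p = 0.0373) but not with the block (0.108) or without the first CsA array (0.147). Cdk4, a kinase that pairs with D cyclins, measured 3864.8, 3930.6 and 3881.7 on the CsA arrays, against 3472.9, 3536.4 and 3640.8 with Flt3-L alone (0.13 ± 0.05, adjusted p = 0.132). Ccnd1, cyclin D1, measured 1679.2, 1608.9 and 1526.5 on the CsA arrays, against 1416.8, 1389.2 and 1320.8 with Flt3-L alone (0.22 ± 0.07, adjusted p = 0.0636). Neither passed the test. Neither gene's groups overlapped, and 11.7% of all genes had every CsA array above every array without it. Cdk6, Ccnd2 and Ccnd3 differed by 0.07, -0.03 and -0.12. Ribosome biogenesis genes leaned higher, with 5 of 21 called and 2 with the block, and none without the arrays numbered 1. Utp20, a factor of small subunit assembly, rose 1.20-fold (0.26 ± 0.06, adjusted p = 0.00681), and Polr1b, a subunit of RNA polymerase I, was called at 0.27 ± 0.06 but not without the first CsA array (0.0574).

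Most genes of the remaining cell types were not called. Over all genes, 2.17% were called higher and 2.35% lower. None of 13 megakaryocyte genes was called (median -0.05). Of 17 erythroid genes, 15 differences lay above 0 and 2 passed the test, none of them without the arrays numbered 1. Slc4a1, the anion exchanger of red cells, measured 3387.9, 3139.3 and 3441.8 on the CsA arrays, against 2680.1, 2569.1 and 2891.8 with Flt3-L alone (0.29 ± 0.06, adjusted p = 0.00463), and Ank1 was called at 0.28 ± 0.08 but not with the block (0.0529) or without the third CsA array (0.239). The 17 genes summed to 15228 to 17021 on the CsA arrays and 13514 to 15571 with Flt3-L alone. Of 24 T and NK cell genes, Cd28, a co-stimulatory receptor, rose to 1039.9, 1122.4 and 1098.9 with CsA, against 728.7, 824.4 and 762.1 with Flt3-L alone (0.50 ± 0.07, adjusted p = 3.52e-05), and Cd8b1 fell (-0.39 ± 0.06, adjusted p = 0.000367). Without the arrays numbered 1 the list again had 1 rise and 1 fall. Of 17 stem and progenitor regulators 2 fell, and 2 without the arrays numbered 1. The 2 were Gata2 and Myb, a factor of immature blood cells, which measured 1366.9, 1320.8 and 1385.4 on the CsA arrays, against 1627.2, 1602.6 and 1634.4 with Flt3-L alone (-0.26 ± 0.05, adjusted p = 0.00347). How far shifts in these cell types moved with the other groups of genes was not tested.

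**Figure D3:**
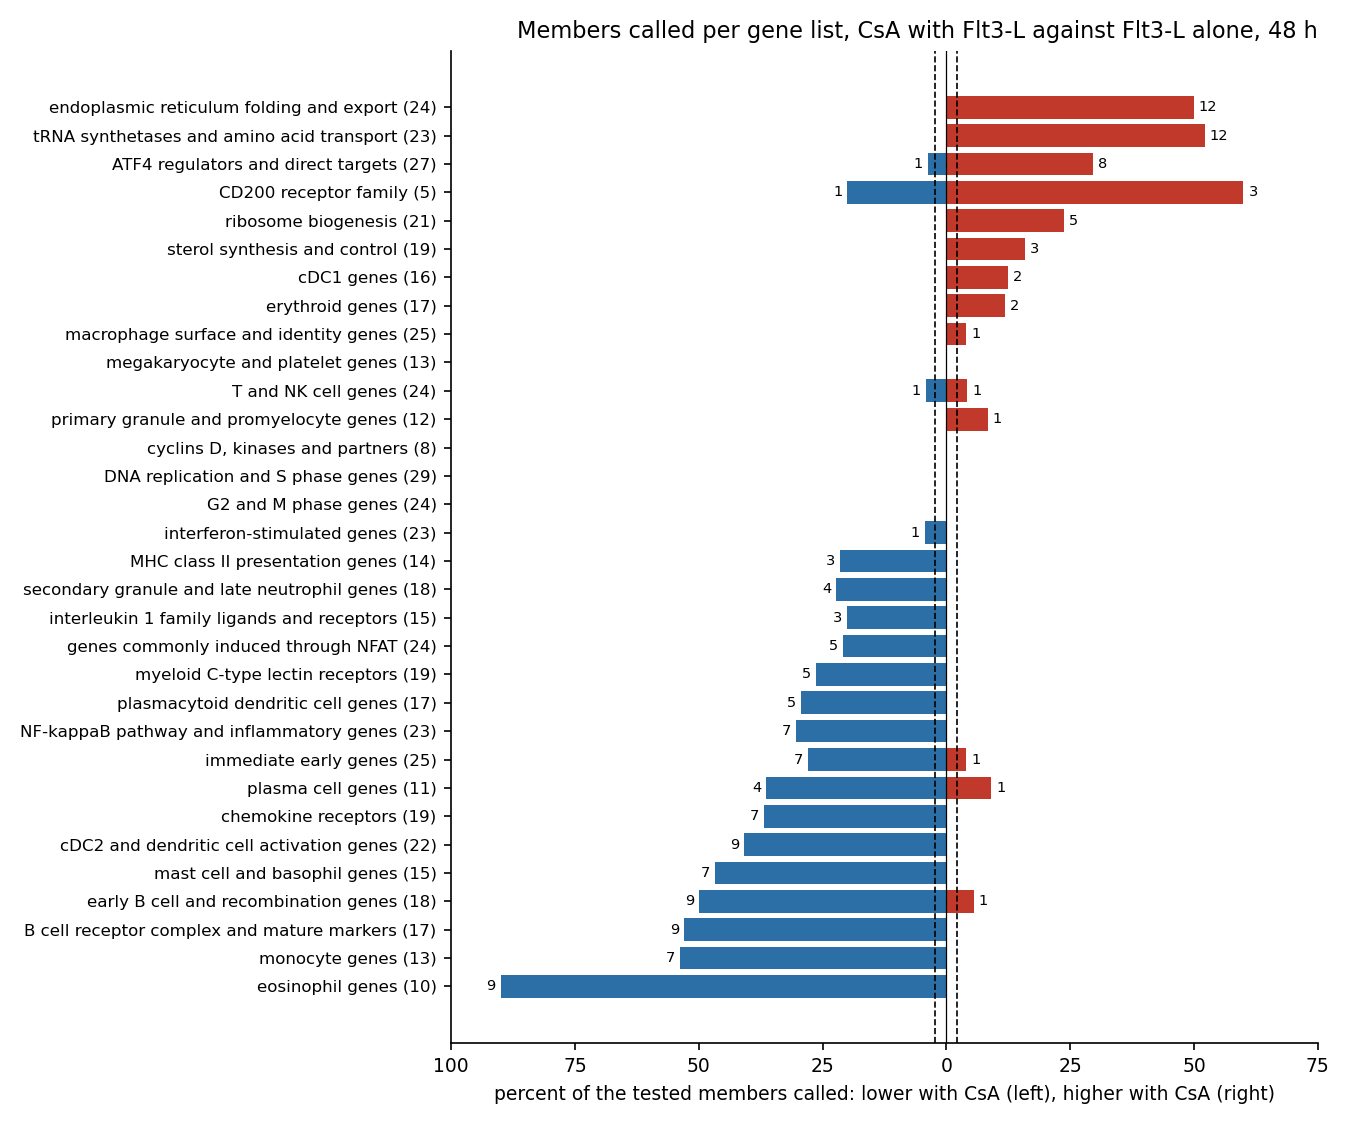
Percent of the tested members of 32 gene lists that were called lower (bars to the left) or higher (bars to the right) with CsA at 48 h, with counts beside the bars, list sizes in brackets and dashed lines at the share over all genes (2.35% lower, 2.17% higher). Eosinophil genes (9 of 10 lower), B cell genes and monocyte genes extend left, and tRNA and amino acid transport genes (12 of 23) and endoplasmic reticulum genes (12 of 24) extend right.

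The 48 h effect was set against the effect at the other times with the difference between CsA effects as a term of the same model. These terms share the 48 h arrays. Against 24 h, 3 genes had a different effect (0.0150% of genes), all more negative at 48 h, and 703 genes had an unadjusted p below 0.05. The 3 genes were Alox15 (-1.28 ± 0.17, adjusted p = 0.00254), Adgre4 (-1.07 ± 0.19, adjusted p = 0.0405) and F13a1 (-0.55 ± 0.09, adjusted p = 0.0179). Alox15 kept the call without any 1 of the 12 arrays involved. Fitted to the arrays of the compared groups alone, none of the 3 genes passed (adjusted p = 0.0767, 0.111 and 0.0767). The calls of Adgre4 and F13a1 were lost in 8 and 6 of those 12, at most at 0.19 without the third CsA array of 24 h and 0.113 without the first CsA array of 48 h. Against 12 h, 154 genes differed (0.773%), 88 with a more positive (0.441%) and 66 with a more negative effect (0.331%) at 48 h. The effect at 11 days differed from that at 48 h in 1387 genes (6.96%), 461 more positive (2.31%) and 926 more negative (4.65%) at 11 days.

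Ccr3 was called lower at every time from 24 h on. It averaged 488.1 ± 29.8, 392.5 ± 69.7, 130.0 ± 8.65 and 186.1 ± 37.5 with CsA at 12 h, 24 h, 48 h and 11 days, against 650.1 ± 90.6, 765.2 ± 98.4, 521.6 ± 26.1 and 720.3 ± 61.8 with Flt3-L alone (SD, n = 3 each). Its level in unstimulated marrow was 528.9 ± 63.2. The effect on Ccr3 was -0.97 ± 0.13 at 24 h and -1.97 ± 0.13 at 11 days. Alox15 averaged 1212 ± 91.6, 889.2 ± 110, 179.4 ± 34.1 and 73.4 ± 3.84 with CsA, against 1224 ± 118, 1460 ± 82.5, 713.8 ± 106 and 70.3 ± 8.2 with Flt3-L alone. By 11 days it was low in both groups. Its log2 difference was -0.01 ± 0.12 at 12 h and 0.07 ± 0.12 at 11 days, and the change of the effect between 48 h and 11 days passed the test (2.07 ± 0.17, adjusted p = 1.12e-08). Of the 10 eosinophil genes, 3, 9, 9 and 5 were called lower at 12 h, 24 h, 48 h and 11 days, against 3.91%, 2.19%, 2.35% and 7.08% of all genes.

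The rise of Ccl2 was largest at 48 h and was reversed at 11 days. Its effect at 48 h did not differ by the test from that at 12 h or at 24 h. It averaged 289.5 ± 18.9, 496.1 ± 8.16, 1223 ± 110 and 342.7 ± 72.3 with CsA, against 216.6 ± 21.1, 404.5 ± 40.1, 617.2 ± 73.4 and 481.1 ± 48.5 with Flt3-L alone. The effect at 11 days was -0.51 ± 0.12 (adjusted p = 0.00392), which differed from that at 48 h by -1.5 ± 0.17 (adjusted p = 1.09e-06). Sec24d averaged 573.3 ± 34.4, 674.4 ± 59.9, 886.1 ± 22.3 and 752.2 ± 3.25 with CsA, against 331.0 ± 16.4, 417.1 ± 36.1, 555.7 ± 44.2 and 714.2 ± 67.7 with Flt3-L alone. It was higher with CsA at the first 3 times, and at 11 days the groups were near each other. The endoplasmic reticulum list had 11, 11, 12 and 2 of 24 genes called higher at 12 h, 24 h, 48 h and 11 days, with medians of 0.21, 0.23, 0.24 and -0.01, against 2.82%, 1.60%, 2.17% and 4.92% of all genes called higher. The ATF4 list kept a positive median, with 10, 11, 8 and 15 of 27 called higher. The sterol list, with 11 and 13 of 19 called higher at 12 h and 24 h, had 3 higher at 48 h and 10 lower at 11 days. In either direction, 6.73% of all genes were called at 12 h, 3.78% at 24 h and 12.0% at 11 days.

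**Figure D4:**
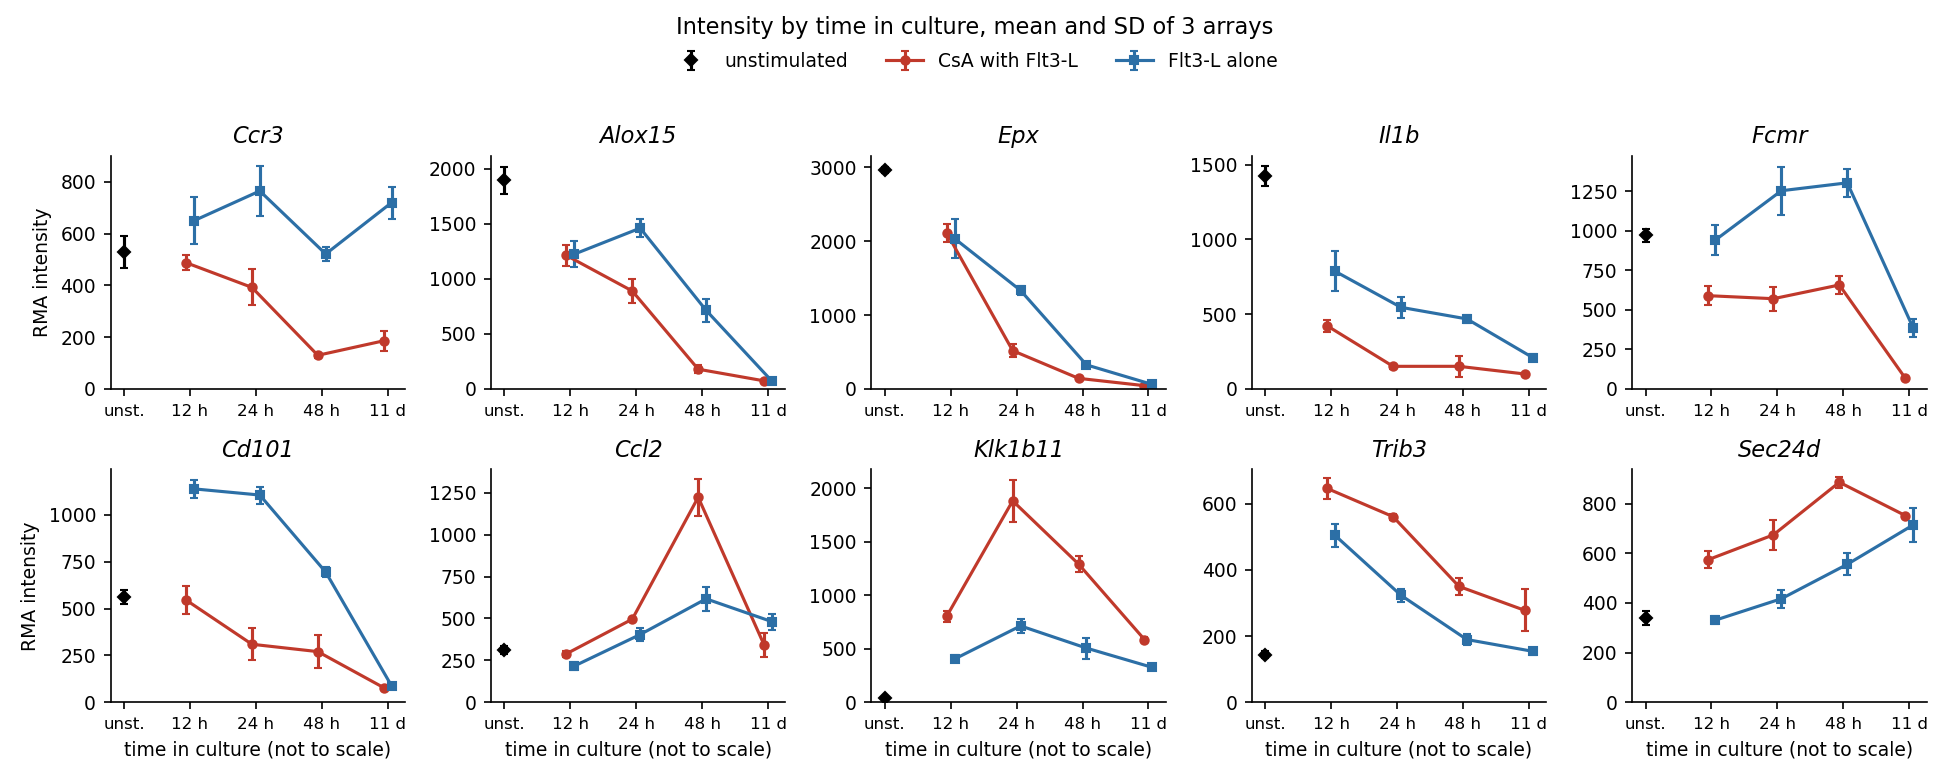
Mean RMA intensity ± SD of 3 arrays for 10 genes in unstimulated marrow (diamond) and at 12 h, 24 h, 48 h and 11 days (time axis not to scale) with CsA and Flt3-L (circles) or Flt3-L alone (squares). Ccr3 is lower with CsA from 24 h on, Alox15 is low in both groups at 11 days, and Ccl2 with CsA peaks at 48 h.

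**Figure D5:**
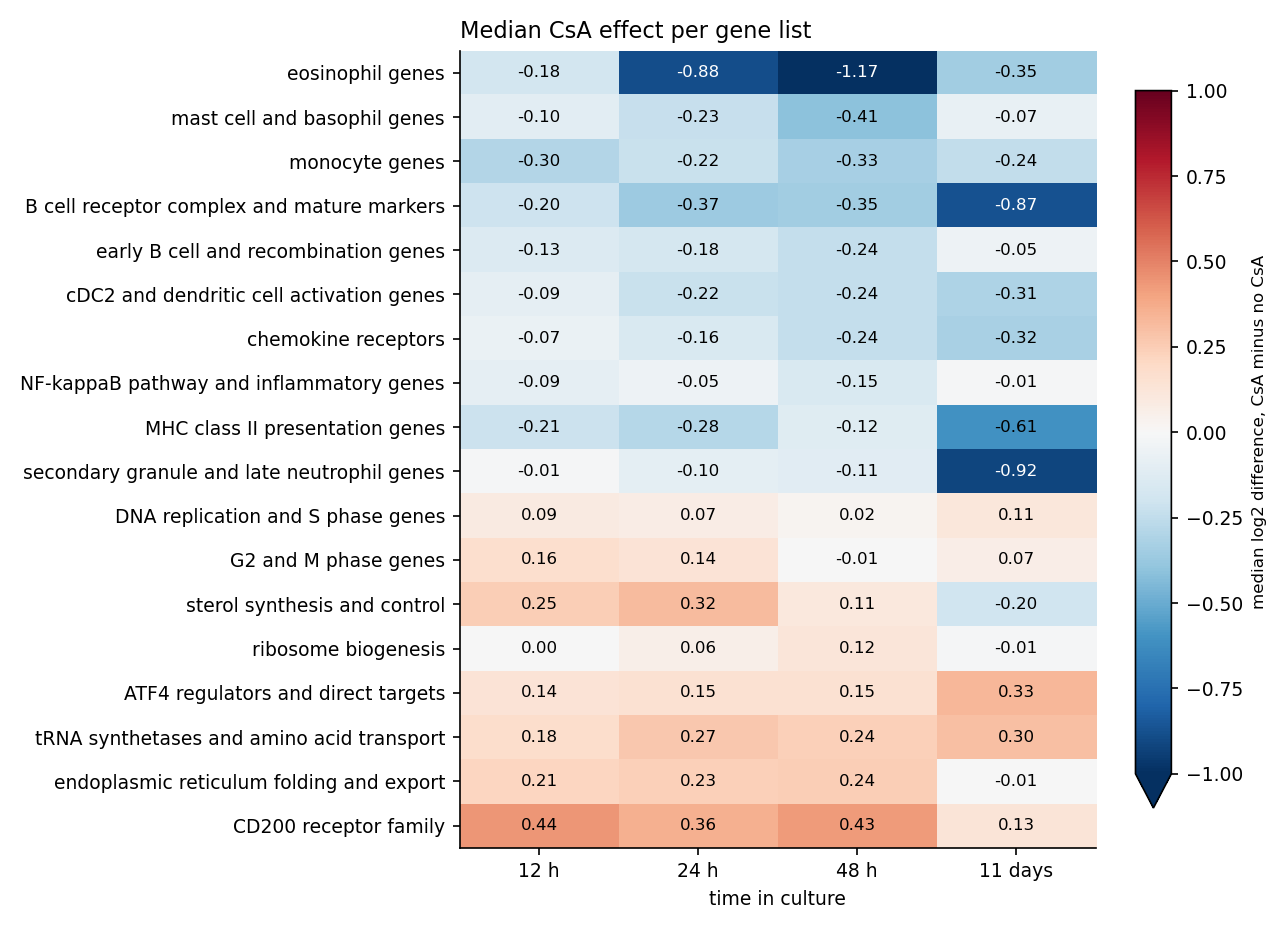
Median log2 difference, CsA with Flt3-L minus Flt3-L alone, of 18 gene lists at 12 h, 24 h, 48 h and 11 days, in colour on a scale from −1 to 1. The eosinophil list is lowest at 48 h (-1.17), and the endoplasmic reticulum list is near 0.2 at the first 3 times and at -0.01 at 11 days.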

How the data were processed

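The samples were 27 Affymetrix mouse arrays in 9 groups of 3, grouped by their titles. Values were the authors' deposited RMA intensities on a linear scale, one per probe set, made with RMA (version not given) per the submitters' processing notes, and log2 was taken here. Background correction and quantile normalization in RMA force arrays to a common distribution, so a shift of most genes at once would not be seen. A probe set with 1 gene symbol was used (21780 of 28815, against 1605 with several and 5430 with none). Where a gene had several, the probe set brightest on average was taken, which left 19935 genes, of which 19852 had gene IDs found in RefSeq. Array medians were 114.2 to 124.8. Precision is set by 3 arrays a group.

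A group-means model over all 27 arrays (18 residual degrees of freedom) was fitted in R 4.3.3 by limma 3.58.1 (empirical Bayes), with Benjamini-Hochberg adjustment over all genes, and differences between times were contrasts of the same fit. All adjusted p-values come from limma. Figures were drawn by matplotlib 3.10.9 and tables handled by numpy 2.4.6 and pandas 2.3.3 (Python 3.11.15). The fit was tested on simulated data.

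The labels call the arrays of a group biological replicates and do not say that a number marks a shared animal or day. The deviations of same-numbered arrays at 48 h correlated at 0.54, 0.18 and 0.19, all above 0.1, so a fit with the number as a block is given where it changes a call. That fit took in only the arrays of the groups compared, not all 27. Arrays 2 and 3 also correlated crosswise, at 0.23 and 0.22.

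Genes were named by rule: the 15 largest rises and falls among called genes whose groups do not overlap, the 5 largest of each sign for each difference between times, 12 pathway genes, and from 56 lists (1068 entries, 985 tested) up to 6 called and 2 other members. Atf4, Hspa5, Xbp1, Eif2ak3, Prg2, Prg3, Siglecf, Cebpe, Naaa, Vsig4, Cd5l, the 3 genes with discordant probe sets and the genes of the families in the closing section were added after their values were seen. The members and lists were chosen with earlier results of these data known. Alternatives were other variance models, array weights, median centring, repeated quantile normalization, log2 of the value plus 16, leaving out the dimmest genes, averaged probe sets, the groups compared alone, stricter thresholds, the block and leaving out arrays. Promoters were those of RefSeq on GRCm38.p6.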

Additional observations from a re-analysis of the deposited data

Results flagged for a closer look

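The results listed here are genes whose CsA effect (CsA with Flt3-L minus Flt3-L alone, log2) at 48 h differed from that at another time in a limma test of the difference itself. They were taken from the 15 largest rises and 15 largest falls at 48 h and, for each difference, the 5 largest of each sign among called genes. Of the wider set of 292 genes named by rule, a further 11 had a more negative and 8 a more positive effect at 48 h than at 12 h, and a further 60 moved down and 38 up between 48 h and 11 days. All 3 differences use the same 48 h arrays, so one unusual array there would enter each of them. No explanation was weighed.

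Against 24 h, the effect at 48 h was more negative for Alox15 (-1.28 ± 0.17, adjusted p = 0.00254), Adgre4 (-1.07 ± 0.19, adjusted p = 0.0405) and F13a1, the factor XIII gene (-0.55 ± 0.09, adjusted p = 0.0179). The effects on F13a1 were -0.16, -0.20, -0.75 and -0.73 at 12 h, 24 h, 48 h and 11 days, and those on Adgre4 -0.49, -0.74, -1.82 and -0.27.

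Against 12 h, the effect at 48 h was more negative for 9 of these genes. In the eosinophil list 6 of 10 genes had a more negative effect. The differences were -2.10 ± 0.31, adjusted p = 0.00093 for Serpinb2, -1.99 ± 0.17, adjusted p = 6.74e-07 for Alox15 and -1.60 ± 0.19, adjusted p = 0.000129 for Ccr3. Il5ra differed by -1.42 ± 0.18, adjusted p = 0.000328, and Adgre4 by -1.32 ± 0.19, adjusted p = 0.000617. Bex1 differed by -1.24 ± 0.23, adjusted p = 0.0098, and Ccl22 by -1.04 ± 0.18, adjusted p = 0.0073. Cyp4f18 (-0.88 ± 0.18, adjusted p = 0.0178) lost the call in 4 of 12 fits that each left out 1 array, at most at 0.0671 without the first CsA array of 48 h. Jchain (-1.52 ± 0.36, adjusted p = 0.0486) lost it in 9 of 12, at most at 0.161 without the second CsA array of 12 h. Serpinb2 changed side, with effects of 0.31, -0.53, -1.79 and 0.10 over the 4 times.

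The effect at 48 h was more positive than at 12 h for 8 of these genes. Npy differed by 0.92 ± 0.14, adjusted p = 0.00129, Cd109, a surface glycoprotein, by 0.76 ± 0.14, adjusted p = 0.0117 and Cd200 by 0.73 ± 0.11, adjusted p = 0.00132. Cd59a (0.72 ± 0.15, adjusted p = 0.0245) and Dio2 (0.71 ± 0.15, adjusted p = 0.0215) lost the call in 4 and 3 of 12 fits, at most at 0.0906 without the first CsA array of 48 h and 0.0588 without the second Flt3-L array of 12 h. The calls of Clec4n (0.77 ± 0.19, adjusted p = 0.0497), Krtap10-4, a keratin-associated protein gene (0.74 ± 0.17, adjusted p = 0.0389), and Adgb (0.64 ± 0.15, adjusted p = 0.0486) were less firm. They were lost in 10, 8 and 10 of 12 fits, at most at 0.133, 0.126 and 0.121, and with the replicate block at 0.0904, 0.0728 and 0.0582. The effects on Clec4n were -1.29, -0.29, -0.52 and -0.76 over the 4 times.

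Between 48 h and 11 days the effect moved down in 10 of these genes. The largest moves were in Serpinb9b, a granzyme inhibitor (-3.27 ± 0.14, adjusted p = 1.72e-13), Ms4a1, which encodes the B cell protein CD20 (-3.03 ± 0.21, adjusted p = 4.51e-10), the granule gene Ngp (-2.15 ± 0.18, adjusted p = 8.01e-09), Ly6a2 (-2.07 ± 0.16, adjusted p = 2.82e-09) and the collagenase Mmp13 (-2.06 ± 0.17, adjusted p = 8.32e-09). At 48 h none of these 5 was called, with effects of 0.22, -0.29, 0.03, 0.02 and 0.05. Of the genes that rose at 48 h, Ccl2 moved by -1.5 ± 0.17, adjusted p = 1.09e-06, Ccl7 by -1.36 ± 0.20, adjusted p = 4.01e-05, Sec24d by -0.60 ± 0.12, adjusted p = 0.00124 and Dnajb9 by -0.59 ± 0.10, adjusted p = 0.000366. Klk1b11 (-0.52 ± 0.15, adjusted p = 0.0366) lost the call in 8 of 12 fits, at most at 0.127 without the first Flt3-L array of 48 h, and with the block (0.0694).

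The effect moved up between 48 h and 11 days in 11 of these genes. In the eosinophil list 5 of 10 genes moved up. Alox15 moved by 2.07 ± 0.17, adjusted p = 1.12e-08, Serpinb2 by 1.89 ± 0.31, adjusted p = 0.000176, Vcan by 1.62 ± 0.25, adjusted p = 0.000105 and Adgre4 by 1.54 ± 0.19, adjusted p = 3.24e-06. Cd101 moved by 1.25 ± 0.24, adjusted p = 0.00127, Bex1 by 1.0 ± 0.23, adjusted p = 0.00567 and Ephx1 by 0.78 ± 0.17, adjusted p = 0.00349. Bex1 lost the call when only the groups compared were fitted (0.067). The effects on Vcan were -0.78, -0.47, -1.62 and 0.00 over the 4 times. Lox, which crosslinks collagen, moved by 1.82 ± 0.18, adjusted p = 2.16e-07, Aqp9, a water and glycerol channel, by 1.62 ± 0.24, adjusted p = 5.42e-05 and Mcoln3 by 1.40 ± 0.14, adjusted p = 3.7e-07. Cyp4f18 (0.59 ± 0.18, adjusted p = 0.0429) lost the call in 8 of 12 fits, at most at 0.134 without the second Flt3-L array of 11 days, and with the block (0.168).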

How the results depend on the processing

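With the replicate number as a block, fitted to the 6 arrays compared alone, 832 genes were called at 48 h, 363 higher and 469 lower. Of them, 633 were among the 900. Against the fit over all 27 arrays, this block fit ended 29 calls among 292 named genes, added 32 and changed no other call. Fitting the same 6 arrays without the block gave 451 calls (183 higher, 268 lower). Leaving out the arrays numbered 1 of both groups, chosen after seeing the data, gave 387 (173 and 214). An adjusted p below 0.01 left 486 (211 and 275), and a 1.5-fold minimum 127 (25 and 102). Leaving out 1 array gave 586 to 693 calls, 265 to 338 higher and 300 to 428 lower. Of 176 named genes called, 95 kept the call in all 17 alternatives. The cause of these changes was not tested, beyond the smaller number of arrays or the stricter rule.

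The 3 calls for 48 h against 24 h became 0 with only the groups compared, 11 with limma-trend, 5 with array weights, 7 without the dimmest genes, 6 with median-centred arrays, 5 with 16 added before the log, 16 with the replicate block and 1 to 4 without 1 array. The 154 calls against 12 h became 59 with only the groups compared, 1472 with array weights and 43 to 589 without 1 array.

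Signs turned in genes that were not called. Without 1 array, the range was -0.1382 to 0.0084 for Cebpe, -0.0192 to 0.0696 for Ly6a2, -0.0199 to 0.1741 for Mmp13, -0.0144 to 0.1462 for Nfatc4, -0.0018 to 0.0747 for Ngp and -0.3237 to 0.1398 for Tubb1. Ly6a2 was at -0.0089 with repeated quantile normalization and Mmp13 at -0.0282 with array weights. Without the arrays numbered 1 of both groups, Cdkn2b was at -0.0509 and Nfatc4 at -0.0283. With 3 arrays a group, the median standard error of 0.0767 limits what small differences can pass.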

Other observations

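Several gene families were looked at after their values had been seen, so their counts are descriptions. The shares over all genes were 2.17% called higher and 2.35% called lower. Sec61b and Sec24d, counted below, were already counted in the list of endoplasmic reticulum folding and export genes. Many genes of the machinery that carries new proteins into the endoplasmic reticulum were called higher with CsA. Of 18 genes of the translocon, the signal peptidase and the signal receptor, 13 were called higher and none lower (median 0.31), 10 with the replicate block and 11 without the arrays numbered 1. Sec61a1, the channel subunit, measured 4262.2, 4447.5 and 4169.9 on the CsA arrays, against 3431.5, 3441.6 and 3503.0 with Flt3-L alone (0.31 ± 0.04, adjusted p = 4.77e-05). Srprb, the membrane anchor of the signal receptor, was called at 0.40 ± 0.06, adjusted p = 6.69e-05, and the translocon-associated Ssr4 at 0.39 ± 0.05, adjusted p = 2.16e-05. Of 12 subunits of the oligosaccharyl transferase, which attaches sugar chains, 6 were called higher and none lower (median 0.27, and 5 without the arrays numbered 1), among them Rpn2 (0.35 ± 0.04, adjusted p = 1.55e-05) and Krtcap2 (0.40 ± 0.05, adjusted p = 5.15e-06). Of 17 genes of the COPII coat and its cargo receptors, 8 were called higher (median 0.18, and 5 without the arrays numbered 1), among them Lman1 (0.49 ± 0.06, adjusted p = 8.35e-06) and Mcfd2 (0.40 ± 0.06, adjusted p = 0.000218). Of 10 COPI coat genes, 3 were called higher (median 0.15, and 2 without the arrays numbered 1).

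Other families leaned the opposite way. Of 8 GIMAP genes, small GTPases of lymphocytes, 3 were called lower (median -0.29), and 3 without the arrays numbered 1. Gimap3 measured 64.1, 66.4 and 75.6 on the CsA arrays, against 104.8, 110.1 and 133.9 with Flt3-L alone (-0.75 ± 0.13, adjusted p = 0.000438), and Gimap4 and Gimap6 were called at -0.61 ± 0.13, adjusted p = 0.00613 and -0.46 ± 0.10, adjusted p = 0.00393. Of 12 inflammasome genes 4 were called lower and none without the arrays numbered 1, among them Nlrp3 (-0.42 ± 0.10, adjusted p = 0.0123) and Mefv (-0.46 ± 0.10, adjusted p = 0.00717). Both calls were also lost without the first CsA array (0.0904 and 0.065). Of 9 SLAM receptor genes 2 were called lower, as without the arrays numbered 1, Slamf6 (-0.61 ± 0.11, adjusted p = 0.00134) and Slamf8 (-0.53 ± 0.09, adjusted p = 0.000594).

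Of the 900 called genes, 714 belonged to none of the lists used. Of the 44 called genes with more than 1 probe set, 3 had another probe set of the opposite sign, Ccdc180, Dnah6 and Dpep2.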
